A study of Arabidopsis thaliana with 27 samples.

Results

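PHV (PHAVOLUTA, AT1G30490) and LBD16 (LATERAL ORGAN BOUNDARIES DOMAIN 16, AT2G42430) are a pair of transcription factor genes of the Arabidopsis thaliana root. They were taken by name, as the probe sets that the array annotation assigned to PHV alone or to LBD16 alone. Each gene had 1 such probe set, 261800_at for PHV and 265856_at for LBD16, so 2 of the 22746 probe sets tested, and 2 of 13350 genes with a probe set of their own, are described here on all 27 arrays. PHV signal was highest in the stele line WOL, on 3 of 3 arrays, and LBD16 signal was highest in the endodermal line SCR, next in WOL and lowest in both lines of the outer root.

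PHV is a class III homeodomain leucine zipper (HD-ZIP) protein. Messages of this class are cut under the direction of the microRNAs miR165 and miR166, which in the root are made in the endodermis and move into the stele, and the level of class III HD-ZIP protein left in each stele cell helps to set which kind of xylem it forms. LBD16 is a LOB-domain protein that auxin induces through the response factors ARF7 and ARF19, and it acts in pericycle cells as they become founder cells of a lateral root. The pericycle is the outermost layer of the stele and touches the endodermis, so both genes are usually discussed as genes of the inner root.

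The study mapped expression over root tissues and along the root with Affymetrix ATH1 arrays, on total RNA from seedlings on MS medium with 4.5% sucrose under 16 h of light and 8 h of dark. Of the 27 arrays, 15 came from 5 green fluorescent protein (GFP) lines with 3 arrays each, and 12 from 3 lengths of Columbia root with 4 arrays each. J3411, in the C24 accession, is labelled for lateral root cap with epidermis. SCR, driven by SCARECROW in Landsberg, is labelled for endodermis and quiescent centre, on replicates 2 and 3 only; replicate 1 carries no tissue label. WOL (stele, with GFP that fades from the elongation zone), GL2 (hairless epidermal cells, the atrichoblasts) and J0571 (endodermis, cortex and quiescent centre) are Columbia lines. Stage I lies about 0.15 mm from the tip, Stage II about 0.3 mm, where cells start to lengthen, and Stage III covers 0.45 to 2 mm, where hairs are at full length. The labels do not say how the marked cells were collected or whether replicates came from separate plantings, so p-values measure the spread between these arrays, which may be technical. Since J3411 and SCR differ from the other lines in accession too, tissue and accession cannot be told apart for them.

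Values are MAS5 signals, an intensity on a linear scale, and each array had the same trimmed mean. A signal of 14.8, which 95% of the readings of unspiked bacterial control probe sets stayed under, is used as the background. The bacterial spike-in controls split the arrays into a class of 8 with low and a class of 19 with high spike-in signal. The low class held replicates 1 and 2 of every stage and replicates 2 and 3 of SCR. Cell markers for which the annotation gave a probe set were few. None of 9 stele, 4 root cap and 2 atrichoblast markers had one, so the labels of WOL, J3411 and GL2 were not checked by their own markers. GSO1, a receptor kinase of the endodermal barrier, was at 969 ± 167 in SCR and 727 ± 563 in J0571 against 29.0 ± 8.14 in J3411 and 24.5 ± 7.07 in GL2 (mean ± SD, n = 3 each), and the cortex marker CO2 was at 419 ± 294 in J0571 and at means of 10.5 to 21.6 in the other lines. The root hair expansins EXPA7 and EXPA18 were at 186 and 228 on J3411 replicate 3 and at 86.7 and 77.2 on SCR replicate 1, against 7.10 to 26.5 and 11.6 to 52.7 on the other 10 arrays of the lines other than WOL.

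In the plot of signal by array, PHV stood apart in 1 line. The WOL arrays read 124, 127 and 93.4, the SCR arrays 18.6, 19.3 and 18.9, and the GL2 arrays 19.9, 21.8 and 14.9. The J3411 arrays read 22.4, 17.9 and 10.1, and the J0571 arrays 5.58, 16.6 and 27.6. Every WOL array was above all 12 arrays of the other lines, whose 4 groups overlapped one another, and 10 of those 12 arrays were above background. PHV averaged 115 ± 18.6 in WOL (SD, n = 3) against 17.8 ± 5.73 over the other 12 arrays, a ratio of geometric means of 6.83, or 6.10 with readings under background raised to it.

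**Figure D1:**
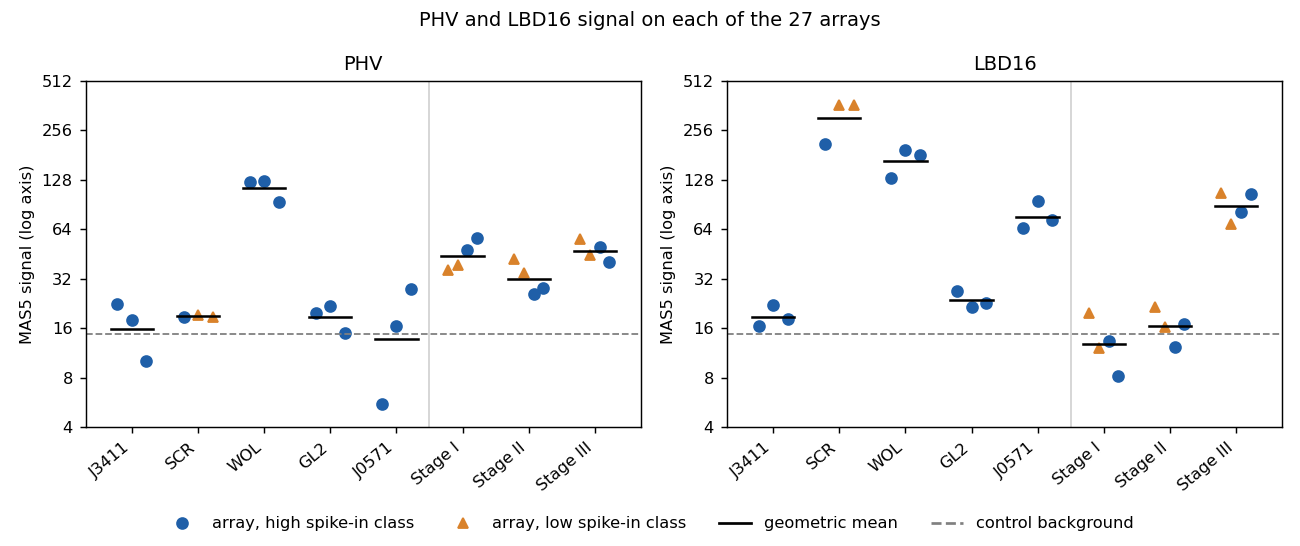
MAS5 signal of PHV (left) and LBD16 (right) on each of the 27 arrays, on a log axis, by line and stage; point shape and colour give the spike-in class, black bars the geometric mean and the dashed line the control background of 14.8. The 3 WOL arrays lie above all other line arrays for PHV, and the 3 SCR arrays lie above all others for LBD16, with SCR replicate 1 the lowest of the 3.

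The WOL mean was set against the average of the remaining 4 lines with limma, fitted to log2(signal + 2.37) over all 22746 probe sets with Benjamini-Hochberg adjustment. PHV was higher by 2.59 on the log2 scale (SE 0.34, adjusted p = 0.000139), the 253rd largest gain. Of all probe sets, 6.66% were called in this comparison at an adjusted p under 0.05, in either direction, and 5.27% were called higher. The difference stayed between 2.15 and 2.77, past the threshold, under each alternative tried. It was 2.64 (adjusted p = 0.00132) among the 3 Columbia lines alone, where accession is constant. It was 2.52 (adjusted p = 0.000162) without J3411 replicate 3 and SCR replicate 1, the arrays with high hair markers.

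None of the other 4 lines passed the test for PHV, although J3411 and J0571 had an unadjusted p of 0.0485 and 0.0154. The log2 differences were -0.72 in J3411 (limma adjusted p = 0.229, with 10.3% of probe sets called), -0.46 in SCR (0.405, 17.5% called), -0.49 in GL2 (0.404, 12.8% called) and -0.92 in J0571 (0.152, 4.69% called). The mean of the others holds the WOL arrays in each case. J0571 was called lower only among the Columbia lines, by -1.58 (limma adjusted p = 0.0255), where WOL is 1 of the 2 lines compared with it. By group mean of the fitted log2 values the order was WOL, SCR, GL2, J3411, J0571.

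Only the first step of that order passed the test. PHV was lower in SCR than in WOL by 2.45 on the log2 scale (95% interval 1.54 to 3.36, limma adjusted p = 0.00298, 7.57% called). With spike-in class added to the fit as a block, which leaves SCR replicate 1 as the array that carries the comparison, the difference was -2.47 but the adjusted p was 0.0662. The next steps were 0.02 from GL2 to SCR (interval -0.89 to 0.93, 18.3% called), 0.19 from J3411 to GL2 (-0.72 to 1.10, 5.37% called) and 0.16 from J0571 to J3411 (-0.75 to 1.07, 7.45% called). These intervals do not show the lines to be alike, and the readings lie close to the background. WOL also exceeded GL2 by 2.46 (limma adjusted p = 0.00118, 10.0% called) and J0571 by 2.81 (0.00144, 3.82% called).

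Hair cell genes were also higher in WOL. EXPA7 was at 142 ± 95.7 and EXPA18 at 207 ± 71.7 (SD, n = 3), higher than the mean of the other lines by 2.29 and 2.37 on the log2 scale (limma adjusted p = 0.0471 and 0.0166). On the arrays outside WOL where these genes were high, PHV read 10.1 (J3411 replicate 3) and 18.6 (SCR replicate 1), within the range of the remaining arrays. These are single arrays of other lines, and the part of hair cells in the WOL values of PHV was not tested. AGL42, a MADS-box gene listed as a quiescent centre marker, was higher in WOL as well, by 2.23 (limma adjusted p = 0.00327). It was also higher in SCR, by 1.93 (limma adjusted p = 0.00569). AGL42 rose from 49.1 ± 7.52 at Stage I to 106 ± 27.4 at Stage III (limma adjusted p = 0.000541). In J0571, whose label holds the quiescent centre, it was at 14.9 ± 8.54. Its signal is therefore not read here as a measure of quiescent centre cells. The part of those cells in the WOL values of PHV was not tested. In samples of many cells, fewer cells of a type and less RNA per cell cannot be told apart.

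Along the root no step of PHV passed the test. Stage I arrays read 36.4, 38.7, 48.0 and 56.8, Stage II arrays 42.2, 34.6, 25.9 and 28.1, and Stage III arrays 55.6, 44.9, 49.9 and 40.3. All 12 readings were above background and the 3 stages overlapped. The means were 45.0 ± 9.36, 32.7 ± 7.34 and 47.7 ± 6.60 (SD, n = 4 each). Stage II differed from Stage I by -0.43 on the log2 scale (SE 0.23, 95% interval -0.94 to 0.07, limma adjusted p = 0.228), where 20.1% of all probe sets were called. Stage III differed from Stage II by 0.53 (interval 0.02 to 1.03, unadjusted p = 0.041, adjusted p = 0.107, 30.9% called) and from Stage I by 0.09 (interval -0.41 to 0.59, adjusted p = 0.790, 43.1% called).

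Against Stage I, the mean at Stage II was lower only on the arrays of the high spike-in class. In that class PHV averaged 52.4 at Stage I and 27.0 at Stage II over 2 arrays each, a log2 difference of -0.89 (limma adjusted p = 0.144). In the low class it averaged 37.5 and 38.4, a difference of 0.03 (adjusted p = 0.966). Whether the classes differ in this step was not tested. From Stage II to Stage III, PHV was higher by 0.37 in the low class and 0.68 in the high class (limma adjusted p = 0.363 and 0.204). Quantile normalization brought the steps down to -0.23 and 0.27. The ratio of GAPDH signal at the message's 3' end to that at its 5' end differed between the classes too. It was 4.34 to 7.85 for stage arrays in the low class and 14.9 to 31.8 for those in the high class. Whether RNA integrity differed, and its part in these values, was not tested.

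**Figure D2:**
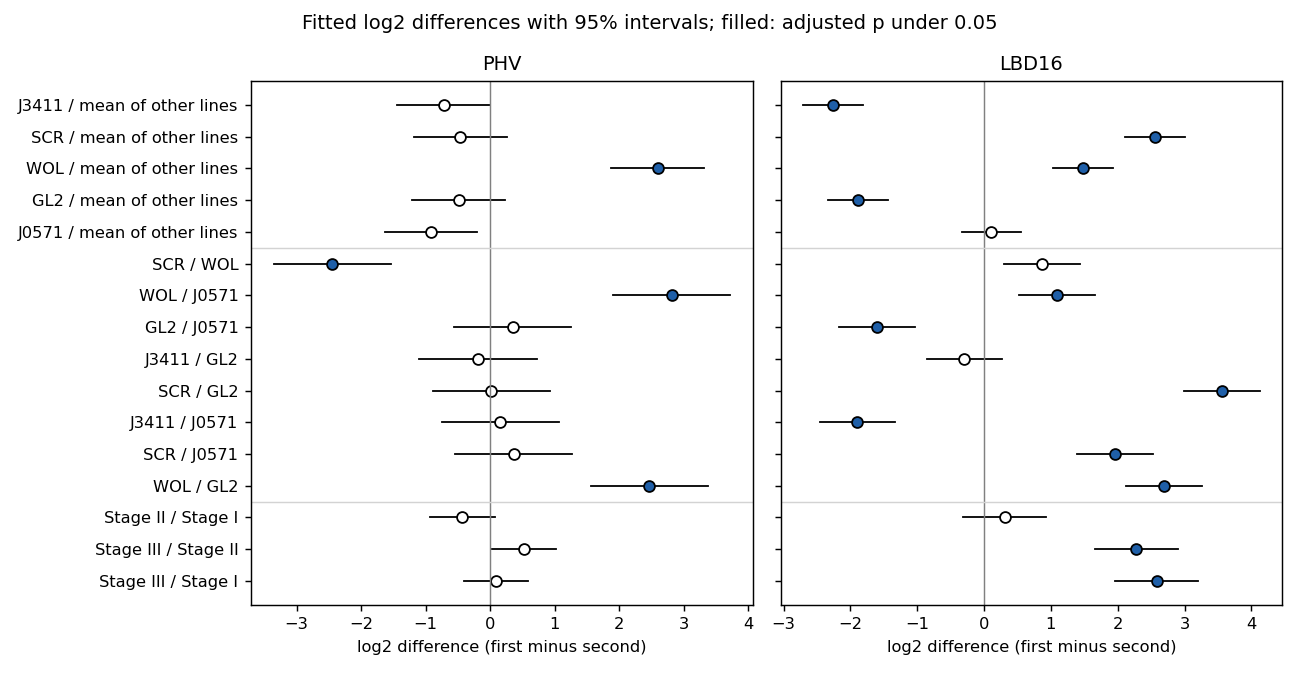
Fitted log2 differences (x axis) of PHV (left) and LBD16 (right) for each line against the mean of the other lines, for 8 pairs of lines and for the stages, with 95% intervals; filled points have an adjusted p under 0.05. PHV is filled only where WOL is in a pair or stands alone, and LBD16 is open for SCR against WOL, at 0.87.

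Of the 5 class III HD-ZIP genes, PHV alone had a probe set of its own here, and none of 12 listed regulators or partners of the class did; PHB, REV, ATHB-8 and ATHB-15 were not analysed here. The lists of other vascular genes were thin. OPS (OCTOPUS), a membrane protein of phloem differentiation, was at 21.7 ± 10.4 in WOL and at or below 8.70 on average in each other line, higher by 1.46 on the log2 scale (limma adjusted p = 0.0336), although 1 of the 3 WOL arrays was under background and the call was lost in 10 of 25 alternatives. LHW (LONESOME HIGHWAY), a bHLH partner of TMO5 in vascular cell division, was at 81.8 ± 39.6 in WOL and differed from the other lines by 0.06 (adjusted p = 0.953). Of 6 vascular and cytokinin signalling genes 1 was called higher in WOL and 0 lower, where 5.27% of all probe sets were called higher and 1.38% lower, with a median difference of 0.21 against 0.09 over all probe sets. The called gene was CLE26, which encodes a peptide that acts in root phloem, at 24.2 ± 11.6 in WOL (log2 difference 1.56, limma adjusted p = 0.0197). It was above background on 2 of the 3 WOL arrays. The call was lost under 4 alternatives, among them WOL replicate 1 or 2 left out.

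Of 4 genes of xylan synthesis in secondary walls, 1 was called higher in WOL and 0 lower, against the same 5.27% and 1.38% of all probe sets, with a median of 0.62 against 0.09 over all. The count was 0 after dim probe sets were filtered out and 2 in one fit of all 27 arrays or without SCR replicate 1. IRX15 was at 16.9 ± 2.52 in WOL, with 2 of 3 arrays above background. Its means in the other lines were 1.56 to 4.30, all of them under background (log2 difference 1.91, limma adjusted p = 0.000668). IRX15-L, its close relative, did not follow PHV: it was at 205 ± 64.1 in SCR, 208 ± 157 in J0571 and 121 ± 36.6 in WOL.

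Genes of these lists also differed between stages. From Stage II to Stage III, 3 of the 4 xylan genes were called higher and 1 lower by limma, against 15.8% and 15.2% of all probe sets. IRX15-L went from 7.43 ± 8.27 to 152 ± 30.0 (log2 difference 4.30, limma adjusted p = 2.49e-05; the Stage II mean is under background), and GUT2, a xylan xylosyltransferase, from 39.9 ± 5.03 to 190 ± 23.5 (2.19, adjusted p = 3.59e-06). IRX15 rose by 1.65 (adjusted p = 0.025) to 17.6 ± 14.9, with 2 of 4 Stage III arrays above background, and this call was lost in 6 of 21 alternatives. GUT1, the relative of GUT2, fell by 0.48 (adjusted p = 0.0485), a call that most alternatives lost. Of the 6 vascular and cytokinin genes, 3 were called lower at Stage II than at Stage I, where 11.1% of all probe sets were, and 2 higher at Stage III than at Stage II. CLE41, whose peptide keeps vascular stem cells dividing, went from 39.3 ± 5.91 to 23.4 ± 4.69 and then to 58.9 ± 8.75 (log2 steps -0.70 and 1.26, limma adjusted p = 0.0427 and 0.000785). RR16, a type-A response regulator of cytokinin signalling, went from 10.2 ± 4.45 to 2.59 ± 3.49 and 14.6 ± 7.36 (steps -1.47 and 1.88, adjusted p = 0.0353 and 0.00608), mostly under background. CLE44, which encodes the same kind of peptide as CLE41, was the third gene lower at Stage II (-0.95, adjusted p = 0.0325). The 3 calls at Stage II fell to 0 or 1 when Stage I replicate 1, 2 or 4 or Stage II replicate 1 or 4 was left out.

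The 6 genes whose log2 signal followed that of PHV most closely over the 15 line arrays, out of 9328 named probe sets above background on average, were AT5G57770 (Pearson r = 0.923), AT2G28410 (0.919), AT1G69080 (0.900), AT5G40020 (0.886), AT2G37870 (0.884) and AT1G79620 (0.883). The points share arrays, and all 6 profiles are set by the WOL arrays; AT5G57770, AT1G69080, AT5G40020 and AT1G79620 averaged under background in each of the other 4 lines, so they were above it on average only through WOL. AT5G57770 was at 111 ± 22.3 in WOL and at means of 4.22 to 8.62 in the other lines, and AT1G79620 at 92.1 ± 34.1 and 1.34 to 2.39. Over the 12 stage arrays their r with PHV was -0.15, -0.19, 0.28, 0.31, 0.57 and 0.22 in the same order. All 6 had higher means at Stage III than at Stage I: AT1G79620 went from 6.11 ± 5.69 to 173 ± 28.4 (limma adjusted p = 8.97e-07), AT5G40020 from 14.5 ± 15.8 to 223 ± 27.8 (7.28e-06) and AT2G28410 from 3.69 ± 2.87 to 97.2 ± 30.9 (8.64e-07). These Stage I means lie under background, so no fold is given.

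**Figure D3:**
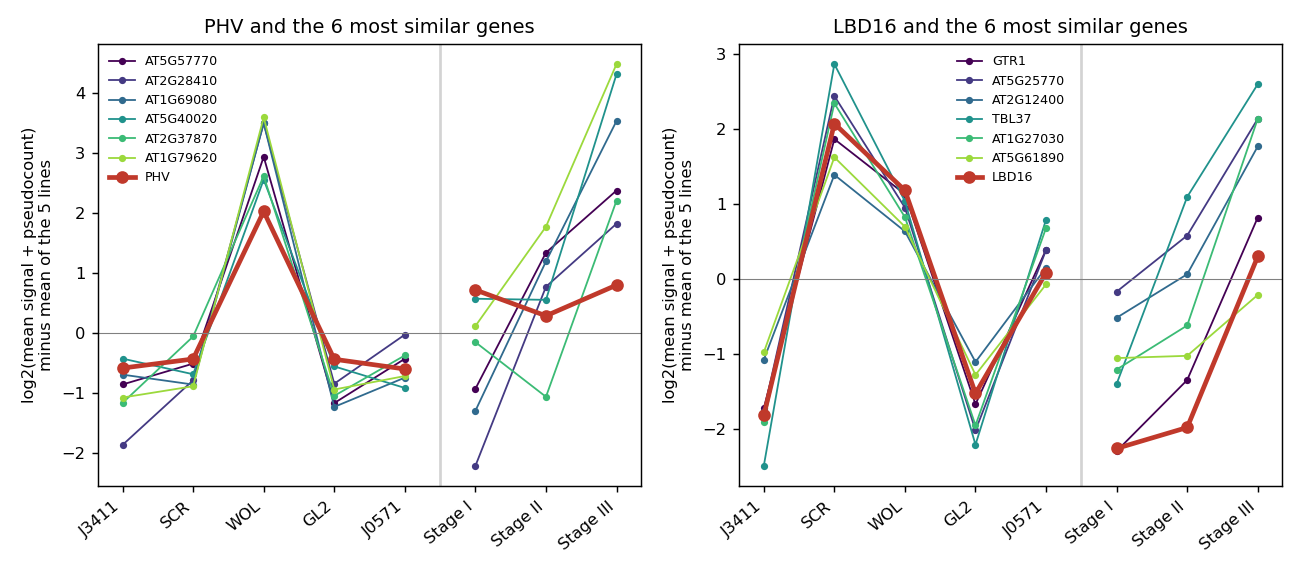
Profiles over the 5 lines and 3 stages of PHV (left, red) and LBD16 (right, red) with the 6 genes most similar to each over the line arrays; the y axis is log2(mean signal + 2.37) minus the mean over the lines. Among the 3 stages, the genes like PHV have their highest mean at Stage III, where PHV is at 47.7 against 45.0 at Stage I. Of the 6 genes like LBD16, 5 climb with it.

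LBD16 showed a graded pattern over the lines. The SCR arrays read 212, 365 and 367, the WOL arrays 132, 194 and 180, and the J0571 arrays 65.2, 95.3 and 72.6. The GL2 arrays read 27.1, 21.5 and 23.0 and the J3411 arrays 16.6, 22.3 and 18.2. SCR, WOL and J0571 did not overlap one another or the remaining lines, GL2 and J3411 overlapped, and all 15 arrays were above background. The means were 315 ± 89.0 in SCR, 169 ± 32.5 in WOL, 77.7 ± 15.6 in J0571, 23.8 ± 2.93 in GL2 and 19.0 ± 2.92 in J3411 (SD, n = 3 each).

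Against the mean of the other 4 lines, LBD16 was higher in SCR by 2.56 on the log2 scale (SE 0.21, limma adjusted p = 4.51e-06), which ranked 152nd by gain and 13th by p. It was higher in WOL by 1.48 (adjusted p = 0.000317) and lower in GL2 by 1.89 (adjusted p = 2.58e-05) and in J3411 by 2.26 (adjusted p = 7.93e-06). In J0571 it differed from the rest by 0.11 (95% interval -0.34 to 0.56, adjusted p = 0.857). Each of the 4 calls held under every alternative tried; that in SCR was smallest in the high spike-in class, at 2.04 (adjusted p = 0.0067), where SCR is replicate 1 alone and is taken to vary like the other lines.

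SCR against WOL sets an endodermal line beside the stele line that holds the pericycle. The ratio of geometric means was 1.83, with every SCR array above every WOL array, and 7.57% of all probe sets were called. The log2 difference was 0.87 (SE 0.27, 95% interval 0.30 to 1.43), and it missed the threshold at a limma adjusted p of 0.059. SCR replicate 1, at 212, was nearer to WOL replicate 2, at 194, than to the other SCR arrays.

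Without SCR replicate 1 the difference was 1.13 (limma adjusted p = 0.00857), and it was also called with a higher pseudocount (0.83, adjusted p = 0.0449) and after dim probe sets were filtered out (0.87, adjusted p = 0.0496). Within the high spike-in class, which holds SCR replicate 1 and all WOL arrays, it was 0.34 (adjusted p = 0.762), and 0.34 again with the class as a block (0.746). Over arrays left out in turn it ran from 0.70 to 1.13. SCR replicate 1 had the high EXPA7 and EXPA18 readings given above, no tissue label and the lowest mean correlation with its group, 0.888. SCR replicate 2 stood out too, with a ratio of 3' to 5' GAPDH signal of 4.09, against 0.717 to 1.95 on the other line arrays. The part of these traits in the difference was not tested. The line, its accession and, for replicates 2 and 3, the spike-in class cannot be told apart in this comparison.

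The next steps of the LBD16 order passed the test as far as GL2. WOL exceeded J0571 by 1.09 on the log2 scale (95% interval 0.53 to 1.66, limma adjusted p = 0.0309, 3.82% called), both in Columbia. This call was lost when WOL replicate 2 or 3 or J0571 replicate 1 or 3 was left out, with differences of 0.99, 1.04, 0.98 and 1.06 and adjusted p of 0.151, 0.125, 0.144 and 0.109. J0571 exceeded GL2 by 1.60 (interval 1.03 to 2.16, limma adjusted p = 0.000871, 9.77% called). GL2 and J3411 differed by 0.30 (interval -0.27 to 0.86, adjusted p = 0.602). SCR exceeded J0571, which shares the endodermis and quiescent centre in its label, by 1.96 (limma adjusted p = 0.00108, 8.95% called) and GL2 by 3.56 (adjusted p = 5.13e-07). J3411 was below J0571 by 1.89 (adjusted p = 0.000289).

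The endodermal gene GSO1 had another order of line means, though its step between WOL and J0571 did not pass the test. GSO1 was at 969 in SCR and 727 in J0571 and at 262 ± 119 in WOL, whereas LBD16 was lower in J0571 than in WOL. For GSO1 the log2 difference of WOL from J0571 was -1.29 (limma adjusted p = 0.121), and the arrays of these lines overlapped. The 2 measured genes listed as cortex markers differed in SCR. CO2 was at 14.4 ± 2.21 there, a mean under background. JKD was at 30.4 ± 12.3 in SCR, 23.9 ± 4.62 in WOL and 87.3 ± 31.9 in J0571, and at 4.23 in J3411 and 1.28 in GL2. JKD was called higher in SCR than the mean of the other lines (log2 difference 1.03, limma adjusted p = 0.0347). It was above background on all 3 WOL arrays too, so its signal is not read here as a measure of cortex cells alone. The part of cortex cells in the LBD16 values was not tested. AGL42 was at 49.7 ± 9.63 in SCR, 58.7 ± 7.64 in WOL and 14.9 ± 8.54 in J0571, and its part in the LBD16 values was not tested. PHV and LBD16 had a Pearson r of 0.39 over the 15 line arrays and 0.36 over the 12 stage arrays, on shared arrays.

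LBD16 was low at the tip and high where cells had matured. Stage I arrays read 19.7, 12.2, 13.5 and 8.20, with 1 of 4 above background, and Stage II arrays 21.5, 16.4, 12.3 and 17.0, with 3 of 4 above it. Stage III arrays read 106, 68.9, 81.5 and 106. Every Stage III array was above all 8 earlier ones, and Stages I and II overlapped. The means were 13.4 ± 4.78, 16.8 ± 3.77 and 90.5 ± 18.5 (SD, n = 4 each).

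Stage III exceeded Stage II by 2.28 on the log2 scale (SE 0.29, limma adjusted p = 5.95e-05), a ratio of geometric means of 5.17 with readings under background raised to it. It exceeded Stage I by 2.59 (adjusted p = 5.91e-06), 5.61 times on the same footing. Stage II and Stage I differed by 0.31 (95% interval -0.31 to 0.93, adjusted p = 0.532), with most readings near background. The step to Stage III was present in both spike-in classes, by 2.06 in the low class (adjusted p = 0.0134) and 2.50 in the high class (0.00569). At this step 30.9% of all probe sets changed, and LBD16 ranked 902nd by gain. GSO1 went from 54.8 ± 20.2 to 516 ± 38.6 and EXPA7 from a mean of 53.2 to 1008 in the same samples (log2 differences 3.25 and 4.56, limma adjusted p = 2.05e-06 and 2.11e-05), and the part of the tissue makeup in the LBD16 step was not tested.

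The genes most like LBD16 over the lines had higher correlations with it than those named for PHV. GTR1 (AT3G47960), a glucosinolate transporter, had an r of 0.983 over the 15 line arrays, followed by AT5G25770 (0.980), AT2G12400 (0.975), TBL37 (AT2G34070, of the TRICHOME BIREFRINGENCE-LIKE family, 0.964), AT1G27030 (0.951) and AT5G61890 (0.948). Over the 12 stage arrays, which did not choose them, r with LBD16 was 0.957, 0.945, 0.943, 0.781, 0.925 and 0.545. The spread of r over all candidate genes is not given, so these values are a description only. GTR1 was at 1290 ± 156 in SCR, 775 ± 280 in WOL, 463 ± 130 in J0571, 109 ± 22.9 in GL2 and 105 ± 11.4 in J3411 (SD, n = 3 each), the same order as LBD16. It rose from 137 ± 82.4 at Stage II to 624 ± 56.8 at Stage III (log2 difference 2.31, limma adjusted p = 0.000124).

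Of these 6 genes, 5 were called higher at Stage III than at Stage II, as were 15.8% of all probe sets; AT5G61890 was not (0.85, limma adjusted p = 0.356). In SCR against WOL, where 2.00% of all probe sets were called higher, 2 of the 6 were, AT5G25770 (1.43, adjusted p = 0.0116) and TBL37 (1.82, adjusted p = 0.00559). GTR1 differed by 0.79 (adjusted p = 0.0863), AT2G12400 by 0.70 (0.126), AT1G27030 by 1.35 (0.181) and AT5G61890 by 0.96 (0.0605), so the sizes bracketed that of LBD16. Since they were chosen on the line arrays, these values describe the pattern and do not test it.

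LBD29, which acts beside LBD16 downstream of auxin, was the only other gene of 6 lateral root LBD genes with a probe set of its own. It averaged 2.83 to 9.79 in all 8 groups and was above background on 4 of 27 arrays, with no call (1.00 at Stage III against Stage II, limma adjusted p = 0.139). Of 27 genes of lateral root initiation and auxin transport, 3 were measured. PUCHI, an AP2/ERF factor of the young lateral root primordium, was at 20.4 to 27.3 on average in the 5 lines and at 43.4 ± 15.0 at Stage III, without a call (Stage III against Stage II 0.83, adjusted p = 0.0704). ACR4, a receptor kinase of lateral root and root cap divisions, was called higher in GL2 (15.5 ± 9.15, log2 difference 1.61, adjusted p = 0.00557), where LBD16 was low.

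GH3.3, which encodes an auxin-conjugating enzyme that auxin induces, read 2.31, 371 and 227 on SCR replicates 1, 2 and 3. The LBD16 readings on the same arrays were 212, 365 and 367, so replicate 1 was the low one for both genes. With that spread GH3.3 was not called in SCR (2.04, SE 1.05, limma adjusted p = 0.212). In WOL it read 26.9, 12.3 and 31.6, and in Stage III it averaged 5.64 ± 6.23 where LBD16 was at 90.5.

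**Figure D4:**
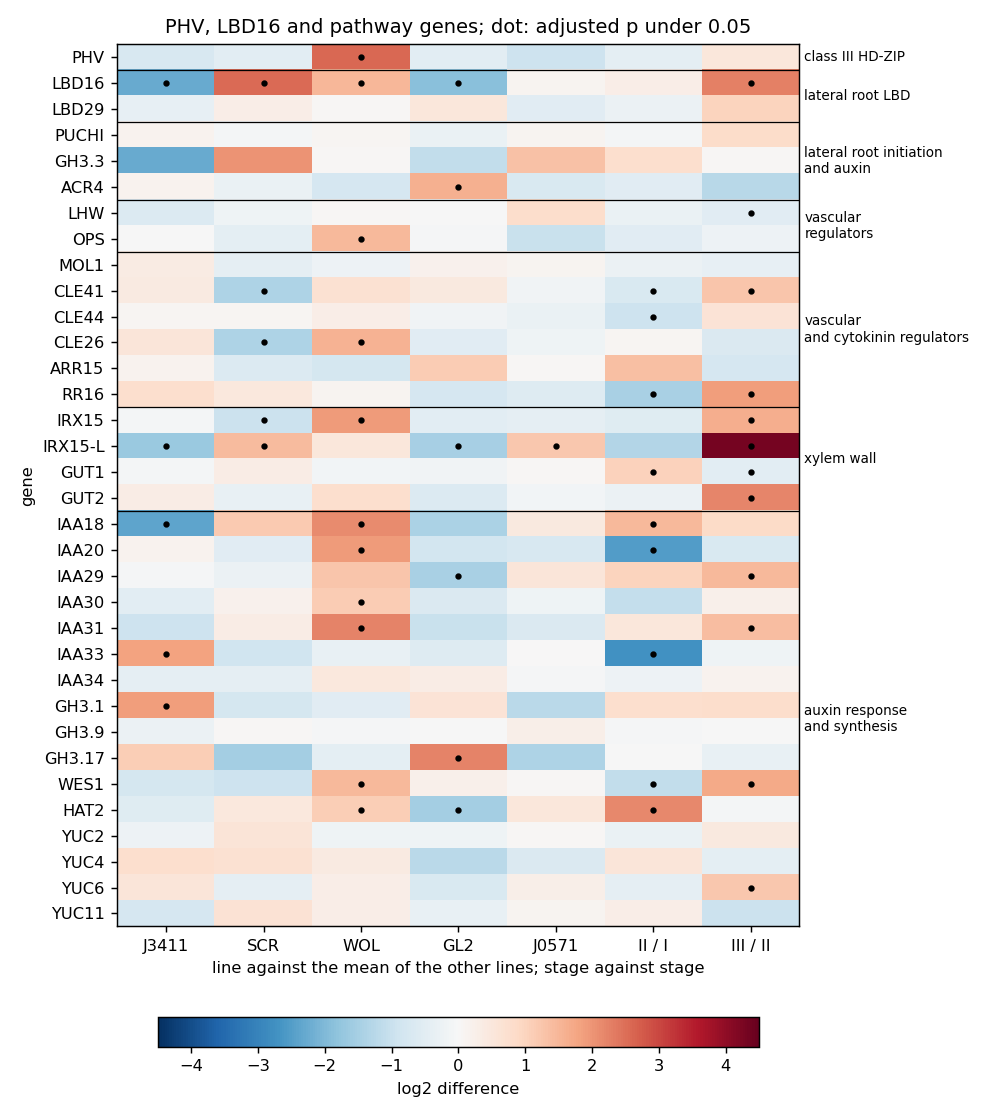
Log2 differences (colour) of PHV, LBD16 and genes of their pathways in each line against the mean of the other lines and between successive stages; dots mark an adjusted p under 0.05. Of the 16 auxin genes, 6 have a dot in WOL, all higher, where 5.27% of all probe sets were called higher. The WOL count is 1 to 3 when a WOL replicate is left out. None of the 16 has a dot in SCR, where 17.5% of all probe sets were called.

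Among 16 further auxin genes, 6 were called higher in WOL and 0 lower, against 5.27% of all probe sets called higher, with a median difference of 0.45 on the log2 scale against 0.09 over all. The count was 1 to 3 when a WOL replicate was left out. IAA31 was at 41.0 ± 3.60 in WOL (log2 difference 2.24, limma adjusted p = 0.00327) and IAA18 at 139 ± 26.4 (2.14, adjusted p = 0.00738), both Aux/IAA repressors of auxin response. IAA20 (1.91, adjusted p = 0.0291) and IAA30 (1.14, adjusted p = 0.0323), of the same family, followed. WES1, the auxin-conjugating enzyme GH3.5, and HAT2, an auxin-induced class II HD-ZIP gene, were the other calls, named after their values were seen. In SCR, where LBD16 was highest, 0 of the 16 were called by limma in either direction (3 were higher and 3 lower at an unadjusted p under 0.05), where 17.5% of all probe sets were called, with a median of -0.10 against -0.07 over all. In SCR against WOL, 0 were called higher and 1 lower, WES1 (-1.91, adjusted p = 0.0309), against 2.00% and 5.57% of all probe sets.

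Along the root the auxin genes split. From Stage I to Stage II, 2 of 16 were called higher and 3 lower, against 8.99% and 11.1% of all probe sets; HAT2 went from 63.3 ± 29.5 to 275 ± 55.4 (log2 difference 2.17, limma adjusted p = 0.000245) and IAA33 from 101 ± 40.5 to 12.6 ± 3.05 (-2.73, adjusted p = 0.000519). IAA20 fell by 2.53 (adjusted p = 0.00391), and IAA18 rose by 1.46 (adjusted p = 0.00713). At the next step, where LBD16 rose, 4 were called higher and 0 lower against 15.8% and 15.2% of all probe sets. These were WES1 (1.71, adjusted p = 0.00159), IAA29 (1.46, 0.00511), YUC6, a flavin monooxygenase of auxin synthesis (1.22, 0.0217), and IAA31 (1.39, 0.0272). The count of 4 was 1 within either spike-in class, and 2 after quantile normalization or without Stage III replicate 2. IAA31 went from 14.2 ± 6.41 to 38.7 ± 9.51, and YUC6 was under background on 3 of the 4 Stage III arrays.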

How the data were processed

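The deposited files hold 1 MAS5 signal per probe set and array, an intensity on a linear scale; MAS5 is credited to the submitters' processing notes, and its version is not given in the sources used here. From 22810 probe sets 64 controls were left out, and the remaining 22746 were fitted as log2(signal + 2.37), the pseudocount being the 10th percentile of all signals. limma 3.58.1 in R 4.3.3 (lmFit, eBayes with an intensity trend, Benjamini-Hochberg over all probe sets, threshold 0.05) was run once on the 15 line arrays and once on the 12 stage arrays. Genes were named from the platform annotation: 13513 probe sets had 1 gene, 503 several and 8730 none. No genome build is named, so no coordinates are given. The script was tested on simulated data. In each comparison the text names at most 4 genes of a list, taken by adjusted p, and every class III HD-ZIP and lateral root LBD gene. PHV, LBD16, the lists and tests were chosen with earlier results of these data known, and the vascular and cytokinin, xylan and further auxin lists after reading which genes the annotation names. Array number and the background of 14.8 limit the precision.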

Additional observations from a re-analysis of the deposited data

Results flagged for a closer look

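PHV and LBD16 had no array far from the others of its stage. Among the 32 genes given by stage, 96 groups of 4 arrays were checked, of which chance would mark about 1 in 20, and 8 held 1 array far above the other 3. The high readings were AT1G69080 at 65.9 (next 10.4), GTR1 at 260 (next 105), IAA18 at 61.2 (next 44.3), RR16 at 7.83 (next 0.898) and EXPA18 at 137 (next 46.0), all in Stage II. The rest were AT2G37870 at 151 in Stage I (next 39.4), and GSO1 at 573 (next 500.1) and IAA20 at 17.9 (next 3.44) in Stage III.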

How the results depend on the processing

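For PHV and LBD16, 24 differences were recomputed under 12 other settings and with each of 27 arrays left out: of 590 values, 568 kept their direction and side of the threshold, 6 lost the call, 5 gained one and 11 changed sign, none of them called. PHV: J0571 against the rest was -1.58 among Columbia lines. Stage II against Stage I was 0.027 in the low spike-in class and Stage III against Stage I -0.21 in the high class. SCR against GL2 was -0.094 after quantile normalization, -0.0025 with the class as a block or in the high class, and -0.12 without GL2 replicate 3. J3411 against GL2 ran from -0.40 to 0.093 over arrays left out, the latter without J3411 replicate 3, and was 0.093 with SCR replicate 1 left out as well (chosen after seeing the data). J3411 against J0571 ran from -0.37 (without J0571 replicate 1) to 0.59, and was -0.056 without J3411 replicate 1. SCR against WOL was -2.47 with the class as a block (adjusted p = 0.0662) and in the high class (0.0869). LBD16: J0571 against the rest ran from -0.042 (without J0571 replicate 2) to 0.22 over arrays left out. SCR against WOL was 0.83 with the 25th-percentile pseudocount, 0.87 after the dim filter and 1.13 without J3411 replicate 3 and SCR replicate 1 (adjusted p = 0.00728), and ran from 0.70 to 1.13 over arrays left out; the dim filter tests fewer probe sets, and the cause of the other changes was not tested.

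Of 1306 values for 56 called list results, 1090 kept the call and 214 lost it; CLE41 in SCR was 0.032 with the class as a block and in the high class. Calls in SCR against the rest went from 3974 to 405 with the class as a block and 389 in the high class, and in SCR against WOL from 1722 to 312 and 291, and to 3912 without SCR replicate 1. Leaving out 1 array of the line moved the other counts to 1155 in J3411 (from 2341), 738 in WOL (1514), 1605 in GL2 (2908) and 408 in J0571 (1066) at the lowest. Without both arrays of high hair markers the counts were 3755 in J3411, 2615 in WOL, 1789 in J0571 and 4515 in SCR against WOL, and J0571 had 1926 among Columbia lines. In the high and low class, Stage II against Stage I had 2797 and 2689 calls (from 4564), and Stage III against Stage II 4532 in the low class (from 7038).

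The replicate numbers met the rule for pairing (every pair over 0.1) in neither the lines nor the stages, though in the stages by 1 pair: same-number correlations ran from -0.22 to 0.12 over 30 pairs of line arrays and from 0.098 to 0.292 over 12 pairs of stage arrays, where 11 of 12 arrays correlated best with their own number, a hint from the data and not the design. With the replicate number as a block no call of either gene changed (LBD16 in SCR against WOL 0.87, adjusted p = 0.0615), and the stage steps had 5929, 8312 and 10830 calls for Stage II against I, III against II and III against I.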
